A study of Mus musculus with 8 samples.

Results

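The genes described here encode the mouse receptors for the Fc part of IgG and their closest partners, measured as mRNA in inflammatory bone marrow-derived macrophages (BMDM). They are Fcgr1, Fcgr3 and Fcgr4 (the activating receptors), Fcer1g (the signalling gamma chain), Fcgr2b (the inhibitory receptor) and Fcgrt (the neonatal Fc receptor, FcRn), which makes 6 genes of the 18183 with at least 1 probe set of their own. A probe set is a group of short array oligos that gives 1 value for a transcript. Probe sets annotated to only 1 of these genes were taken, 11 of the 45008 tested, and each gene was read on its brightest probe set by the mean of 8 arrays, with the others as a check. Values are log2 RMA units, so that a difference of 1 is a doubling of the intensity.

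BMDM were grown from the frozen femur marrow of 4 C57Bl/6 mice with L929 conditioned medium and stimulated for 24 h, and each of 4 groups held 2 arrays from 2 mice. The groups were miR-155-/-(LPS + IL-10), miR-155-/-(LPS), WT(LPS + IL-10) and WT(LPS), with LPS at 100 ng/ml in all of them and IL-10 at 20 ng/ml given 5 min before LPS. No array came from BMDM without LPS, so the response to LPS itself was not measured. A genotype difference already present before LPS cannot be told apart from one that arose with LPS. The miR-155-/- mice lack the microRNA in every cell, were male by the labels and were set against female WT mice, so genotype and sex cannot be told apart. The study's methods describe adult female littermates for its BMDM in general, which differs from the sex in the labels, and the age of these mice is not given in the labels. The LPS + IL-10 and LPS arrays of a replicate number came from the same donor.

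Macrophages use Fc receptors to take up particles coated with IgG and to sense immune complexes. Fcgr1, Fcgr3 and Fcgr4 bind IgG with different affinities and depend on the gamma chain, whose ITAM motif is phosphorylated by Src family kinases and recruits the kinase Syk. Fcgr2b carries an ITIM motif in its own tail, recruits the phosphatase SHIP1 (Inpp5d) and dampens the activating receptors on the same cell, so the balance of both kinds sets how strongly a macrophage answers to IgG. FcRn pairs with beta-2-microglobulin, binds IgG inside acidic endosomes and returns it to the surface. miR-155 is a microRNA that rises in macrophages after LPS, and IL-10 is a cytokine that limits the LPS response through STAT3.

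The microRNA missing in the miR-155-/- BMDM is printed first because it defines the genotype. Its mature 5p strand lies on the plus strand of chromosome 16 (RefSeq, GRCm38.p6, chr16:84714143-84714165), and the capitals mark the seed, bases 2 to 8, which pairs with targets.
mmu-miR-155-5p: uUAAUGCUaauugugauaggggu
The 250 bases before the start site are shown for 4 receptor genes because 3 of them, Fcgr2b, Fcgr4 and Fcgr3, lie in that order on chromosome 1, ahead of Fcer1g, and differed in pattern. Capitals mark matches, searched on both strands, to the letters GAGGAA (the core of sites of the myeloid factor PU.1, read here as TTCCTC on the opposite strand), TTCNNNGAA (a GAS element, the site of STAT dimers) or GAAA, any 2 bases and GAAA again (paired blocks as in an interferon response element). The Fcgr1 stretch is chr3:96293970-96294219 (minus strand) and holds a GAS match from 109 to 101 bases and a PU.1 match from 55 to 50 bases before the start. The Fcgr3 stretch is chr1:171059404-171059653 (minus strand), from the further upstream of 2 starts in the table, and ends in a PU.1 match. The Fcgr4 stretch is chr1:171018676-171018925 (plus strand), with the paired GAAA blocks from 73 to 64 bases and a PU.1 match from 22 to 17 bases before the start. The Fcgr2b stretch is chr1:170976072-170976321 (minus strand) and holds none of these letters, as do those of Fcer1g and Fcgrt.
Fcgr1: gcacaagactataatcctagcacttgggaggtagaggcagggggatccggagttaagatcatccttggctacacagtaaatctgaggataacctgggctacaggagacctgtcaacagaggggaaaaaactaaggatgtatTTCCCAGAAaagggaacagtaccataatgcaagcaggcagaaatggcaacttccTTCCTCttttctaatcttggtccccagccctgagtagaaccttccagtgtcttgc
Fcgr3: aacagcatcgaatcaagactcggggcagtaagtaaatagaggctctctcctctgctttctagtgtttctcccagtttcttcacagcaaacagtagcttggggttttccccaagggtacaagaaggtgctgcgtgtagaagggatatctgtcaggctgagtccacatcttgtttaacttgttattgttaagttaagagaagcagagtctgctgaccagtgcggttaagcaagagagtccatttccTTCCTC
Fcgr4: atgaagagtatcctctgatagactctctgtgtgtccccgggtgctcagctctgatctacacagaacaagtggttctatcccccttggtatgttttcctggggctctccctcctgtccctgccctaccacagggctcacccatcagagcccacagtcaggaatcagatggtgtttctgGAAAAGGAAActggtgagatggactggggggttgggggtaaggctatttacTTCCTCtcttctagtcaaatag
Fcgr2b: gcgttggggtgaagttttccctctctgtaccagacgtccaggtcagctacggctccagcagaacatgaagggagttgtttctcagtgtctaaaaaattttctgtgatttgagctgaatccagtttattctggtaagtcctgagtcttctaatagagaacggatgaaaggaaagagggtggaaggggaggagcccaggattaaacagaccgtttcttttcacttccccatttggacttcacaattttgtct
None of the printed matches overlap. Of 32841 RefSeq stretches of the same length, 23.3% held GAGGAA, 7.02% held the GAS letters and 2.98% held the paired GAAA blocks. A match is a description of the letters, and binding was not measured.

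The arrays read as macrophages. The 8 measured macrophage markers, among them Csf1r, Adgre1 and Lyz2, passed the test in none of the 5 comparisons (limma, adjusted p under 0.05), and their summed level lay between 15.37 and 15.59 log2 units on all arrays. At an unadjusted p under 0.05 (limma), 1 was higher and 1 lower for IL-10 in WT BMDM and for genotype in either treatment. For IL-10 in miR-155-/- BMDM 1 was higher and 2 were lower. Shares over all probe sets were 9.27%, 13.8% (LPS), 8.95% (LPS + IL-10) and 17.3% in that order. At an adjusted p under 0.05 (limma) they were 0.0311%, 1.46%, 0.0711% and 2.68%, and 0.0333% for the difference of the IL-10 effects. Mertk read 8.52 and 8.03 in miR-155-/-(LPS) BMDM, against 9.06 and 9.37 in WT(LPS) BMDM. Aif1 read 12.20 and 12.21 there, against 11.72 and 11.67. Markers of other cells that carry Fc receptors were dim: 3 of 5 B cell markers, 4 of 6 NK and T cell markers, 3 of 5 dendritic cell markers and 5 of 6 mast cell and basophil markers were below 4 on every array, with Ms4a1 at 1.74 to 2.92, Ncr1 at 1.89 to 2.34 and Ms4a2 at 1.57 to 1.82. The brightest of the others were Prf1, a perforin of NK and T cells, at 6.59 to 6.97 and Mcpt8, a basophil protease, at 6.13 and 5.19 in WT donor 1 and 2.87 to 3.38 on the other 6 arrays. Both arrays of WT donor 1 stood apart in fibroblast genes: the 8 stromal markers summed to 12.95 and 13.03 log2 units there and to 6.77 to 8.99 on the other 6 arrays, and Col1a1 read 11.63 and 11.86 there, against 4.06 to 8.00 on the others. Lum, 1 of these 8 markers, ran the other way: it rose in miR-155-/-(LPS) BMDM, to 4.91 and 5.63, against 2.63 and 2.77 in WT(LPS) BMDM (2.57, adjusted p = 0.0125, limma), where the WT values lay below 4. The Lum call was lost without any 1 of these 4 LPS arrays (adjusted p = 0.0622 to 0.109). Of 7 neutrophil markers 5 were below 4 on every array, while Mmp8 fell in miR-155-/-(LPS) BMDM, to 7.33 and 8.34, against 10.26 and 10.22 in WT(LPS) BMDM (log2 difference -2.40, adjusted p = 0.0463, limma). That call was lost without any 1 of the 8 arrays (adjusted p = 0.0502 to 0.262). The summed neutrophil level was 8.04 and 8.67 in miR-155-/-(LPS) BMDM and 10.35 and 10.29 in WT(LPS) BMDM, carried by Mmp8. Without both arrays of WT donor 1 the Mmp8 and Lum calls were lost (adjusted p = 0.183 and 0.0812), and the part of the stromal and basophil genes of that donor in the results below was not tested.

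Across the 6 genes, Fcgr3, Fcgr2b, Fcgrt and Fcgr4 were higher with IL-10 in all 4 donors, while Fcgr1 and Fcer1g stayed within 0.16 of log2 in each comparison on their brightest probe sets. In LPS alone, miR-155-/- BMDM had more Fcgr2b and Fcgr4 and less Fcgr3 and Fcgrt than WT BMDM, and in LPS + IL-10 the estimates of these gaps were smaller. Only 1 of these differences passed the test over all 45008 probe sets: Fcgr3 rose with IL-10 in miR-155-/- BMDM. In a bulk sample, a change in the number of cells that carry an mRNA and a change in the mRNA per cell cannot be told apart.

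**Figure D1:**
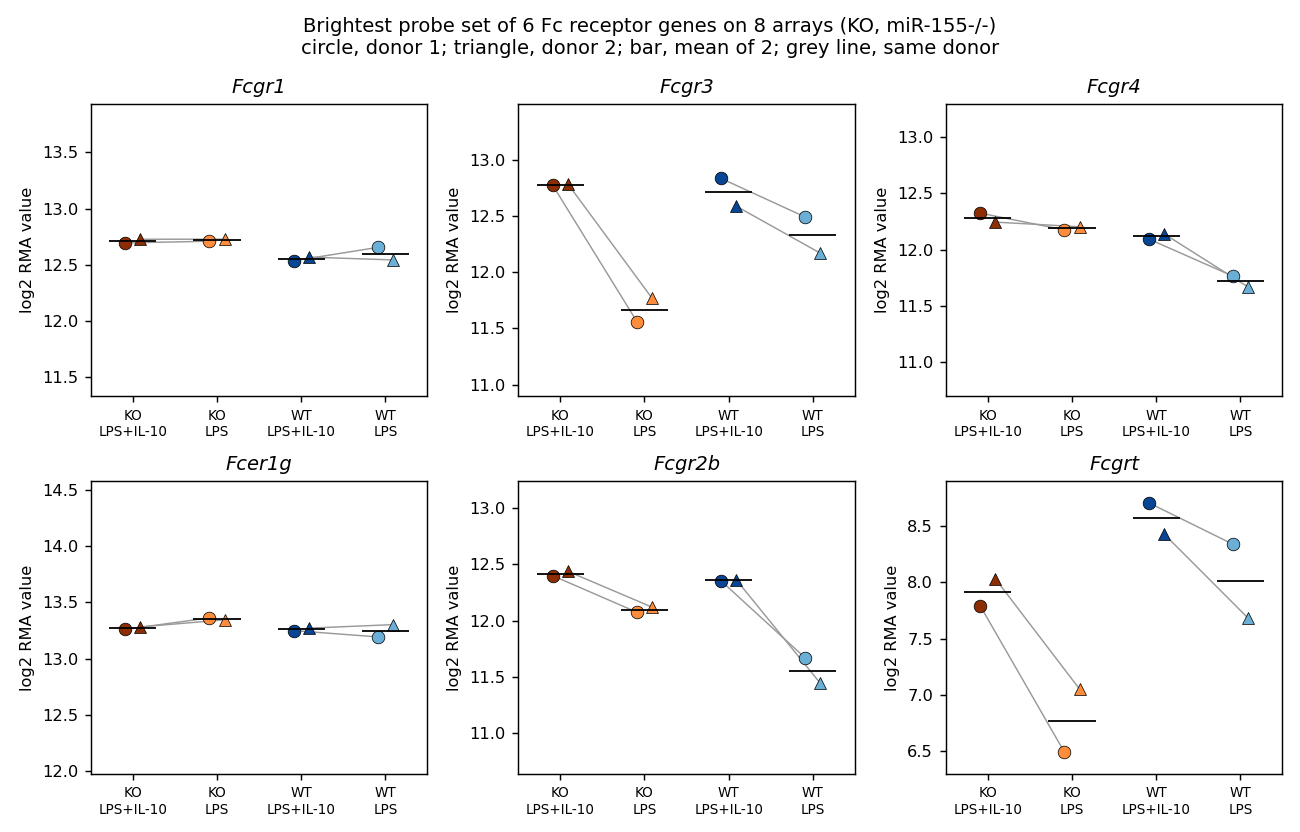
Values of the brightest probe set of each gene (y axis, log2 RMA units, all panels spanning 2.6 units) in the 4 groups (x axis; KO, miR-155-/-), with a circle for donor 1, a triangle for donor 2, a bar for the mean of both and a grey line joining arrays of a donor. Fcgr3 in miR-155-/-(LPS) sits at 11.56 and 11.77, below the other 6 arrays, and Fcgr2b in WT(LPS) sits at 11.67 and 11.44, below the other 6 arrays.

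The counts stand beside those of the whole array as follows. For IL-10 in miR-155-/- BMDM, 1 of the 6 genes passed an adjusted p of 0.05 and 3 had an unadjusted p under 0.05, where 2.68% and 17.3% of all probe sets did. For IL-10 in WT BMDM, 0 passed and 4 had an unadjusted p under 0.05 (limma), where 0.0311% and 9.27% of all probe sets did. For miR-155-/- against WT in LPS, 0 passed and 4 had an unadjusted p under 0.05 (limma), where 1.46% and 13.8% of all probe sets did. In LPS + IL-10 the genotypes gave 0 and 1 of the 6 (limma), where 0.0711% and 8.95% of all probe sets did. When the IL-10 effects of both genotypes were set against each other the counts were 0 and 2 (limma), where 0.0333% and 10.4% of all probe sets did. The members' median log2 difference was 0.21 for IL-10 in miR-155-/- BMDM and 0.39 for IL-10 in WT BMDM, with 0.01 and 0 over all probe sets. For genotype it was 0.11 in LPS and 0.06 in LPS + IL-10, with 0.02 and 0.03 over all probe sets. These comparisons share arrays, WT(LPS) or miR-155-/-(LPS) in particular, and are not independent of each other.

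With 2 arrays a group, separation of the groups is common on this array. Groups of 5 of the 6 genes did not overlap for IL-10 in miR-155-/- BMDM, where the share over all probe sets was 47.9%, and groups of 4 did not for IL-10 in WT BMDM, where it was 32.8%. All 6 were separate between genotypes in LPS and 4 in LPS + IL-10, where the shares were 46.5% and 38.9%.

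Fcgr1 encodes the high-affinity receptor, which binds monomeric IgG. Fcgr1 read 12.70 and 12.73 in miR-155-/-(LPS + IL-10) BMDM, against 12.71 and 12.73 in miR-155-/-(LPS) BMDM. In WT(LPS + IL-10) BMDM it read 12.54 and 12.57, against 12.66 and 12.54 in WT(LPS) BMDM. All 8 arrays thus lay within a narrow band near the top of the scale, with the miR-155-/- arrays above the WT arrays. The genotype difference was 0.12 (95% interval -0.17 to 0.40) in LPS and 0.16 (-0.13 to 0.44) in LPS + IL-10, and the IL-10 difference was -0.01 (-0.26 to 0.24) in miR-155-/- and -0.05 (-0.30 to 0.20) in WT BMDM. A dimmer Fcgr1 probe set (1436625_at) read 10.21 and 10.38 in miR-155-/-(LPS + IL-10) BMDM, against 10.71 and 10.74 in miR-155-/-(LPS) BMDM, a difference of -0.43 (adjusted p = 0.167, limma) that the brighter set (1417876_at) did not show. In WT BMDM the dimmer set read 10.06 and 10.40 with LPS + IL-10, against 10.18 and 10.36 with LPS, so those groups overlapped. Both probe sets were higher in LPS-treated miR-155-/- than WT BMDM, by 0.45 on the dimmer one (adjusted p = 0.255, limma).

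Fcgr3 encodes a low-affinity activating receptor for immune complexes, and it gave the clearest IL-10 response of the activating receptors. Fcgr3 read 12.77 and 12.78 in miR-155-/-(LPS + IL-10) BMDM, against 11.56 and 11.77 in miR-155-/-(LPS) BMDM. The WT(LPS + IL-10) arrays gave 12.83 and 12.59, against 12.49 and 12.17 in WT(LPS) BMDM. The lowest values were those of miR-155-/-(LPS) BMDM, and with IL-10 both genotypes reached the same range. Fcgr3 rose with IL-10 in miR-155-/- BMDM by 1.11 on the log2 scale, a 2.16-fold difference (95% interval 1.72 to 2.72, adjusted p = 0.0123, limma), by 1.21 in donor 1 and 1.02 in donor 2. Left out in turn, each of the 4 miR-155-/- arrays ended the call: the adjusted p was 0.121 without miR-155-/-(LPS) replicate 1, 0.0601 without its replicate 2, 0.101 without miR-155-/-(LPS + IL-10) replicate 1 and 0.0893 without its replicate 2, with differences of 1.01 to 1.22. In WT BMDM the IL-10 difference was 0.38 (adjusted p = 0.488, limma), with 0.34 in donor 1 and 0.42 in donor 2.

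The difference between those IL-10 effects was 0.73 (SE 0.20, adjusted p = 0.349, limma), larger in both miR-155-/- donors than in both WT donors but short of the threshold over all probe sets. Between genotypes in LPS, Fcgr3 differed by -0.66 (adjusted p = 0.12, limma). WT donor 1, with its fibroblast genes, had the higher Fcgr3 values of the WT pair, and without it the genotype difference in LPS was -0.50 (adjusted p = 0.327). The call in miR-155-/- BMDM held without WT donor 1 (adjusted p = 0.0137). In the order of group means, miR-155-/-(LPS + IL-10) at 12.78 ± 0.009 and WT(LPS + IL-10) at 12.71 ± 0.17 overlapped, followed by WT(LPS) at 12.33 ± 0.23 and miR-155-/-(LPS) at 11.66 ± 0.15 (SD, n = 2 each). Among neutrophil markers, Mmp8 ran in the same order of genotypes in LPS, while Ltf, Ngp, Mpo, Elane and Cxcr2 were below 4 on every array. Camp, the other neutrophil marker, ran the opposite way, at 6.30 and 5.82 in miR-155-/-(LPS) BMDM and 5.78 and 5.07 in WT(LPS) BMDM (0.64, adjusted p = 0.393, limma), and the part of Mmp8-bearing cells in the Fcgr3 values was not tested.

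Fcgr4 encodes the activating receptor of intermediate affinity for IgG2a and IgG2b. Fcgr4 read 12.32 and 12.24 in miR-155-/-(LPS + IL-10) BMDM, against 12.18 and 12.20 in miR-155-/-(LPS) BMDM. WT(LPS + IL-10) BMDM gave 12.10 and 12.14, against 11.77 and 11.67 in WT(LPS) BMDM. The WT(LPS) arrays were the lowest, and the other 6 arrays lay close together above them. The difference was 0.40 for IL-10 in WT BMDM (95% interval 0.15 to 0.65, adjusted p = 0.331, limma) and 0.10 in miR-155-/- BMDM (-0.16 to 0.35, adjusted p = 0.731). Between genotypes it was 0.47 in LPS (0.18 to 0.76, adjusted p = 0.141) and 0.17 in LPS + IL-10 (-0.12 to 0.46, adjusted p = 0.717). The IL-10 effects of the genotypes differed by -0.31 (adjusted p = 0.527). Group means ran from 12.28 ± 0.06 in miR-155-/-(LPS + IL-10), past 12.19 ± 0.02 in miR-155-/-(LPS), to 12.12 ± 0.03 in WT(LPS + IL-10) and 11.72 ± 0.07 in WT(LPS) BMDM (SD, n = 2 each), and no 2 groups overlapped.

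Fcer1g encodes the gamma chain that the 3 activating receptors need to signal and to reach the surface. Fcer1g read 13.26 and 13.28 in miR-155-/-(LPS + IL-10) BMDM, against 13.36 and 13.35 in miR-155-/-(LPS) BMDM. Its values were, in WT(LPS + IL-10) BMDM, 13.25 and 13.27, against 13.19 and 13.30 in WT(LPS) BMDM. No comparison exceeded 0.11 in size, and the 95% intervals of the 4 pairwise comparisons lay between -0.33 and 0.39. The highest value of any probe set on any array was 13.73, so Fcer1g lay close to the ceiling of the measurement, and whether that ceiling flattens it was not tested.

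Fcgr2b encodes the inhibitory receptor and carried the largest IL-10 difference among these genes in WT BMDM. Fcgr2b read 12.40 and 12.44 in miR-155-/-(LPS + IL-10) BMDM, against 12.07 and 12.12 in miR-155-/-(LPS) BMDM. The WT BMDM with LPS + IL-10 gave 12.35 and 12.36, against 11.67 and 11.44 in WT(LPS) BMDM. The WT(LPS) arrays were the lowest, the miR-155-/-(LPS) arrays came next, and the 4 arrays with IL-10 were the highest. In WT BMDM the IL-10 difference was 0.80, or 1.74-fold (95% interval 1.44 to 2.11), the 97th of all probe sets in order of p-value, and the adjusted p was 0.0971 (limma). In miR-155-/- BMDM it was 0.32, or 1.25-fold (1.03 to 1.51, adjusted p = 0.216). The IL-10 effects of the genotypes differed by -0.48 (SE 0.16, adjusted p = 0.419), with a smaller effect in both miR-155-/- donors (0.32 and 0.32) than in both WT donors (0.68 and 0.92). Between genotypes the difference was 0.54 in LPS (adjusted p = 0.122) and 0.06 in LPS + IL-10 (adjusted p = 0.915). Group means were 12.42 ± 0.03 in miR-155-/-(LPS + IL-10), 12.36 ± 0.007 in WT(LPS + IL-10), 12.10 ± 0.03 in miR-155-/-(LPS) and 11.55 ± 0.16 in WT(LPS) BMDM (SD, n = 2 each).

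**Figure D2:**
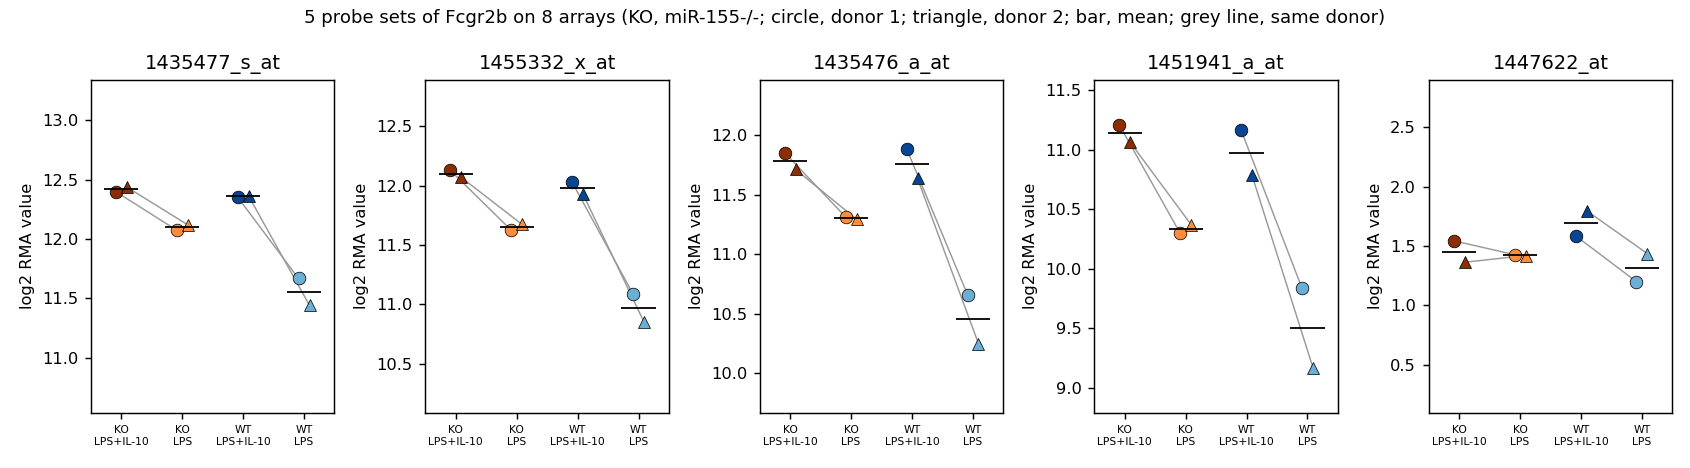
The 5 probe sets of Fcgr2b, 1 a panel (y axis, log2 RMA units, each panel spanning 2.8 units), in the 4 groups (x axis; KO, miR-155-/-); circles are donor 1, triangles donor 2, bars the mean and grey lines join arrays of a donor. In the 4 brighter sets the WT(LPS) arrays are the lowest and the arrays with IL-10 the highest, while 1447622_at stays between 1.20 and 1.80.

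The array holds 5 probe sets for Fcgr2b, and 4 of them showed the same order. The IL-10 difference in WT BMDM was 0.80 on the brightest set (1435477_s_at), 1.01 on 1455332_x_at, 1.31 on 1435476_a_at and 1.47 on 1451941_a_at, so that dimmer sets gave larger differences, up to 2.78-fold. Their adjusted p-values were 0.0971, 0.0623, 0.0603 and 0.0879 (limma). On the dimmest of these, 1451941_a_at, Fcgr2b read 11.21 and 11.06 in miR-155-/-(LPS + IL-10) BMDM, against 10.30 and 10.37 in miR-155-/-(LPS) BMDM. There WT(LPS + IL-10) BMDM read 11.17 and 10.78, against 9.84 and 9.17 in WT(LPS) BMDM. The gap between WT(LPS) and every other group was thus wider on that set, and the genotype difference in LPS was 0.83 (adjusted p = 0.157) compared with 0.54 on the brightest. The suffixes matter for reading these sets. By the maker's naming an _a_at set reads transcripts of 1 gene, and an _x_at set has some probes that may match other sequences. An _s_at set has probes shared by several transcripts, which may belong to different genes. The brightest set, 1435477_s_at, is of that kind, and whether it also reads another gene was not tested. The fifth set, 1447622_at, read 1.20 to 1.80 on all arrays, near the lowest value on any array (0.92), and says little about the gene.

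Whether Fcgr2b counts as changed depended on the settings of the test. When probe sets averaging under 6 were dropped, its IL-10 difference in WT BMDM passed (adjusted p = 0.00892), as it did when the variance followed intensity and its hyperparameters were robust (adjusted p = 0.00243), at the same value of 0.80. With all probe sets kept, that difference passed on 1435476_a_at and 1451941_a_at when the donor was a fixed block (adjusted p = 0.042 and 0.0397) and on these and 1455332_x_at when arrays were centred on their medians (0.0403 to 0.0471). On the brightest set, the genotype difference of Fcgr2b in LPS passed with the filter at 6 and with the intensity trend (adjusted p = 0.0286 and 0.00943, limma). Without WT donor 1 the IL-10 difference in WT BMDM was 0.92 (adjusted p = 0.115).

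Fcgrt encodes the heavy chain of FcRn, whose role differs from that of the surface receptors. Fcgrt read 7.79 and 8.03 in miR-155-/-(LPS + IL-10) BMDM, against 6.49 and 7.05 in miR-155-/-(LPS) BMDM. In WT(LPS + IL-10) BMDM it read 8.71 and 8.43, against 8.34 and 7.68 in WT(LPS) BMDM. Every donor was higher with IL-10, and the miR-155-/-(LPS) arrays were the lowest of all. The IL-10 difference was 1.14 in miR-155-/- BMDM, or 2.20-fold (95% interval 1.52 to 3.19), with an adjusted p of 0.0527 (limma), just short of the threshold, and 0.56 in WT BMDM (adjusted p = 0.523). The genotypes differed by -1.24 in LPS (adjusted p = 0.0813) and by -0.66 in LPS + IL-10 (adjusted p = 0.529). The difference of the IL-10 effects was 0.58 (SE 0.32, adjusted p = 0.565).

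On the brightest probe sets, the donors of a genotype lay further apart in Fcgrt with LPS than in any other of the 6 genes. Group means were 7.91 ± 0.17 in miR-155-/-(LPS + IL-10), 6.77 ± 0.40 in miR-155-/-(LPS), 8.57 ± 0.19 in WT(LPS + IL-10) and 8.01 ± 0.46 in WT(LPS) BMDM (SD, n = 2 each), and WT(LPS) overlapped with miR-155-/-(LPS + IL-10). WT donor 1, the donor with fibroblast genes, had the higher Fcgrt in both treatments, and without it the genotype difference in LPS was -0.91 (adjusted p = 0.255). Without it the IL-10 difference in miR-155-/- BMDM was unmoved at 1.14 and passed (adjusted p = 0.0385). It passed likewise with the donor as a fixed block, a paired comparison within donors (adjusted p = 0.0184). Endothelial markers, of a cell type known for FcRn, were below 4 on every array in 4 of 5 cases (Pecam1, Cdh5, Tek and Stab2). The other, Kdr, read 6.80 and 6.78 in miR-155-/-(LPS) BMDM, against 5.84 and 6.02 in WT(LPS) BMDM (0.86, adjusted p = 0.17, limma), the opposite side from Fcgrt. The part of endothelial cells in the Fcgrt values was not tested.

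**Figure D3:**
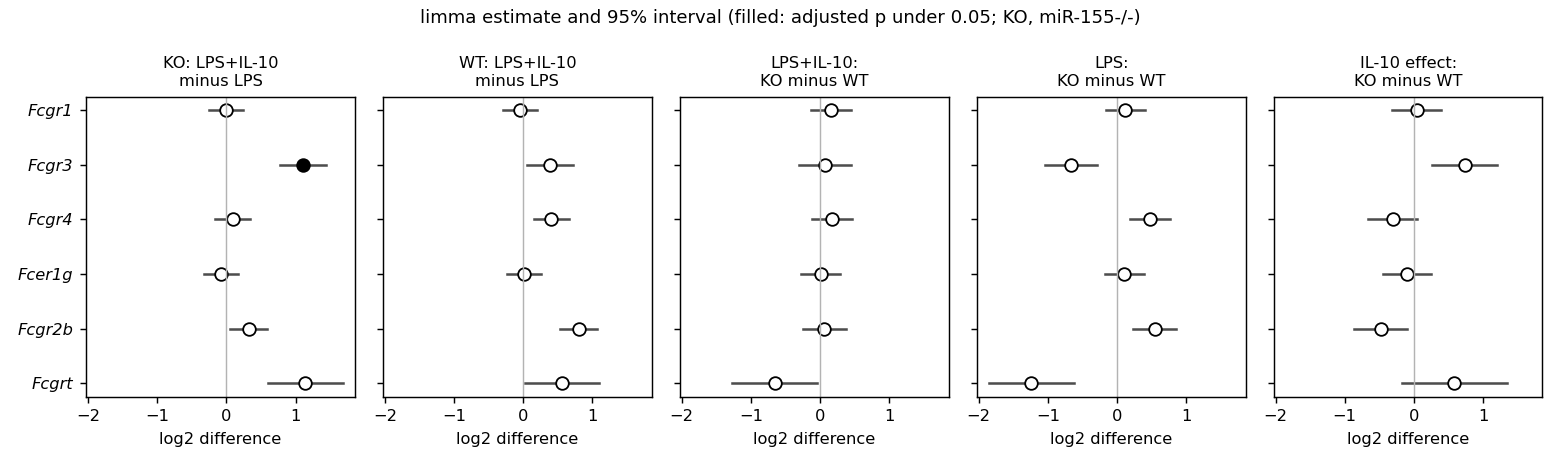
log2 differences of the 6 genes (y axis) in the 5 comparisons (1 a panel, x axis in log2 units; KO, miR-155-/-), each point the limma estimate and each line its 95% interval from 8 arrays, filled where the adjusted p was under 0.05. Only Fcgr3 for IL-10 in miR-155-/- BMDM is filled, at 1.11, and the intervals of Fcgr1 and Fcer1g include 0 in every panel.

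Across the members, the genotype differences in LPS went in both directions within the same chromosome 1 cluster, with Fcgr2b at 0.54 and Fcgr4 at 0.47 beside Fcgr3 at -0.66, whose intervals did not meet (0.23 to 0.85 and 0.18 to 0.76 against -1.04 to -0.28). In LPS + IL-10 the same 3 genes differed between genotypes by 0.06, 0.17 and 0.07, with all intervals across 0. Of the 6 genes, Fcgrt alone had an interval short of 0 between genotypes in LPS + IL-10 (-1.27 to -0.04). For IL-10 in miR-155-/- BMDM the intervals of Fcgr3, Fcgr2b and Fcgrt lay above 0, and for IL-10 in WT BMDM those of the same 3 and Fcgr4 did.

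Among genes that carry the signal of activating Fc receptors, 19 of 22 listed were measured. With IL-10 in miR-155-/- BMDM 1 rose, 2 fell and 16 did not pass (2 were higher and 5 were lower by an unadjusted p under 0.05), and in the other 4 comparisons 0 passed (limma), although at an unadjusted p under 0.05, 6 were higher and 1 lower for genotype in LPS, 4 higher and 2 lower for genotype in LPS + IL-10, 1 higher and 0 lower for IL-10 in WT BMDM and 1 higher and 3 lower for the difference of the IL-10 effects. For this and the following lists, the shares of all probe sets at an unadjusted p under 0.05 were 17.3% for IL-10 in miR-155-/- BMDM, 9.27% for IL-10 in WT BMDM, 13.8% and 8.95% for genotype in LPS and in LPS + IL-10 and 10.4% for the difference of the IL-10 effects. At an adjusted p under 0.05 (limma) these shares were, in the same order, 2.68%, 0.0311%, 1.46%, 0.0711% and 0.0333%. A count of 0 in a short list thus says little about its genes. The list's median was -0.08 with IL-10 in miR-155-/- BMDM and 0.36 for genotype in LPS, beside 0.01 and 0.02 over all probe sets. Lat2, an adaptor downstream of Fc receptors, rose to 10.34 and 10.06 in miR-155-/-(LPS + IL-10) BMDM, against 9.38 and 9.13 in miR-155-/-(LPS) BMDM (0.94, adjusted p = 0.0382, limma). Blnk, an adaptor best known from B cells, fell to 8.94 and 7.97, against 9.99 and 9.66 (-1.37, adjusted p = 0.0447). Prkcd, the kinase PKC delta, fell to 9.29 and 9.31, against 10.11 and 10.07 (-0.79, adjusted p = 0.0271). The groups did not overlap for any of these genes. Without 1 array, the Prkcd call was lost in all 4 cases in which a miR-155-/- array was left out (adjusted p = 0.13 to 0.188). The Lat2 call was lost likewise (0.14 to 0.231) and also without either WT(LPS + IL-10) array (0.0693). The Blnk call was lost without any 1 WT array (0.0813 to 0.0856), either miR-155-/-(LPS) array (0.187 to 0.255) or miR-155-/-(LPS + IL-10) replicate 2 (0.145). Without both arrays of WT donor 1, Lat2 and Prkcd passed (0.0303 and 0.0255) and Blnk did not (0.0651).

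Syk, the kinase that binds the phosphorylated gamma chain, read 11.77 and 11.69 in miR-155-/-(LPS) BMDM, against 10.41 and 10.96 in WT(LPS) BMDM, a difference of 1.05 (adjusted p = 0.0546, limma). Syk was thus above the WT range in both miR-155-/-(LPS) arrays but short of the threshold. Vav3, an exchange factor for Rac in phagocytosis, differed by -1.02 between genotypes in LPS (adjusted p = 0.0879), the opposite side. Blnk had the largest genotype difference in LPS, 1.12 (adjusted p = 0.146), and the largest difference of the IL-10 effects, -0.94 (adjusted p = 0.457). Plcg1 had the largest IL-10 difference of this list in WT BMDM, 0.84 (adjusted p = 0.416), and Fgr, a Src family kinase, differed by 0.77 between genotypes in LPS and by 0.76 in LPS + IL-10 (adjusted p = 0.15 and 0.339).

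The inhibitory pathway that Fcgr2b feeds was read by 8 of 9 listed genes, and 0 passed in any of the 5 comparisons (limma). At an unadjusted p under 0.05, 1 was higher and 1 lower for genotype in LPS, and 3 were higher and 1 lower for genotype in LPS + IL-10, with 0 in the others. Inpp5d, which encodes SHIP1 and is a known target of miR-155, read 11.21 and 11.33 in miR-155-/-(LPS + IL-10) BMDM, 11.00 and 11.25 in miR-155-/-(LPS) BMDM, 11.19 and 11.07 in WT(LPS + IL-10) BMDM and 11.20 and 11.11 in WT(LPS) BMDM. Its mRNA groups overlapped or nearly met, and the genotype difference was -0.03 in LPS (95% interval -0.36 to 0.30) and 0.14 in LPS + IL-10 (-0.19 to 0.46). The largest differences of the list were -0.79 for Dok2, an adaptor that restrains Ras, between genotypes in LPS (adjusted p = 0.161), -0.55 for Dok2 in LPS + IL-10 (adjusted p = 0.525), -0.29 for Ptpn11 with IL-10 in miR-155-/- BMDM (adjusted p = 0.296), -0.24 for Dok1 with IL-10 in WT BMDM (adjusted p = 0.549) and 0.24 for Dok2 in the difference of the IL-10 effects (adjusted p = 0.785).

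Other receptors share the gamma chain or a related ITAM adaptor, and all 11 listed genes were measured, 4 of them below 4 on every array. For genotype in LPS, 1 rose and 1 fell, with IL-10 in miR-155-/- BMDM 1 rose and 1 fell, and 0 passed in the other 3 comparisons, where 0 higher and 1 lower had an unadjusted p under 0.05 for IL-10 in WT BMDM, 1 and 1 for genotype in LPS + IL-10 and 2 and 1 for the difference of the IL-10 effects (limma). Clec4n (dectin-2, a gamma chain-coupled receptor for fungal mannan) fell in miR-155-/-(LPS) BMDM, to 9.37 and 9.21, against 11.53 and 11.35 in WT(LPS) BMDM, a difference of -2.15 (SE 0.17, adjusted p = 0.00439, limma). That call held without each of the 8 arrays in turn (adjusted p at most 0.0447). With IL-10 it rose in miR-155-/- BMDM to 9.99 and 10.22 (0.81, adjusted p = 0.0406), a call that was lost without any 1 of the 8 arrays (adjusted p = 0.054 to 0.219), while in WT BMDM it read 11.51 and 11.18 with LPS + IL-10, against 11.53 and 11.35 with LPS. Gp6, the platelet collagen receptor, was dim at 2.54 to 5.91. It rose in miR-155-/-(LPS) BMDM, to 5.91 and 5.39, against 2.94 and 3.88 in WT(LPS) BMDM (2.24, adjusted p = 0.033), and fell with IL-10 in miR-155-/- BMDM, to 3.77 and 3.56 (-1.99, adjusted p = 0.0215). The genotype call was lost without any 1 array (adjusted p = 0.0533 to 0.214) and the IL-10 call without any 1 miR-155-/- array (0.0838 to 0.173). The lower Gp6 values of both comparisons lay below 4, where the size of a difference is poorly measured. Without both arrays of WT donor 1 the Gp6 genotype call was lost (adjusted p = 0.0688), while its IL-10 call (0.00814) and both Clec4n calls (0.0248 and 0.0409) held. Clec4n also had the largest genotype difference of the list in LPS + IL-10, -1.24 (adjusted p = 0.0832), and Gp6 the largest difference of the IL-10 effects, -1.48 (adjusted p = 0.362). The adaptor Tyrobp stayed at 12.67 to 12.82. The mincle receptor Clec4e passed in no comparison, but its miR-155-/- arrays lay above its WT arrays. It read 12.86 and 12.72 in miR-155-/-(LPS + IL-10) BMDM, against 13.10 and 12.98 in miR-155-/-(LPS) BMDM. In WT(LPS + IL-10) BMDM it read 12.25 and 12.37, against 12.43 and 12.60 in WT(LPS) BMDM, so every donor was lower with IL-10. Oscar, at 2.14 to 2.84, had the largest IL-10 difference of the list in WT BMDM (-0.55, adjusted p = 0.264).

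FcRn needs B2m and works with sorting proteins of the endosome, and all 6 listed genes were measured. B2m read 13.23 to 13.35 on the 8 arrays, while Fcgrt read 6.49 to 8.71. Like Fcer1g, B2m lay close to the highest value on any array, and whether that flattens it was not tested. With IL-10 in miR-155-/- BMDM, 0 rose and 1 fell: Trim21, a cytosolic receptor for the Fc part of antibodies, fell to 10.94 and 11.00, against 11.67 and 11.52 in miR-155-/-(LPS) BMDM (-0.63, adjusted p = 0.0438, limma). The Trim21 call was lost without any 1 of the 8 arrays (adjusted p = 0.0641 to 0.269) and without both arrays of WT donor 1 (0.0533). In the other 4 comparisons 0 passed (limma), where 3 higher and 0 lower had an unadjusted p under 0.05 for genotype in LPS, 1 and 0 for genotype in LPS + IL-10, 0 and 1 for IL-10 in WT BMDM and 0 for the difference of the IL-10 effects. Trim21 had the largest difference of the list in each pairwise comparison, at -0.41 with IL-10 in WT BMDM and at 0.69 and 0.48 between genotypes in LPS and in LPS + IL-10, and Rab4a, a GTPase of early recycling, had the largest difference of the IL-10 effects (-0.61, adjusted p = 0.489).

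Of 11 other Fc receptor and Fc receptor-like genes, 9 were measured and 6 were below 4 on every array, among them the IgE receptor Fcer2a at 2.17 to 2.68 and the polymeric Ig receptor Pigr at 2.57 to 2.84. None passed in any of the 5 comparisons (limma), while an unadjusted p under 0.05 was reached by 1 gene in each direction for IL-10 in miR-155-/- BMDM and by 0 in the others. Fcrls, a macrophage Fc receptor-like gene, was the bright member. It read 10.44 and 11.42 in miR-155-/-(LPS + IL-10) BMDM, against 8.90 and 9.90 in miR-155-/-(LPS) BMDM, a difference of 1.53 (adjusted p = 0.128). The WT(LPS + IL-10) arrays gave 10.69 and 10.12, against 10.54 and 9.28 in WT(LPS) BMDM. It was higher with IL-10 in every donor, but the donors of a genotype differed widely under the same treatment. It had the largest difference of the list in the other comparisons too, at 0.50 with IL-10 in WT BMDM, -0.51 and 0.52 between genotypes in LPS and in LPS + IL-10, and 1.03 in the difference of the IL-10 effects (adjusted p = 0.589 to 0.78).

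Of 7 transcription factors known to act on Fcgr genes, 6 were measured and 0 passed in any comparison (limma). At an unadjusted p under 0.05, 2 were higher and 2 lower for genotype in LPS, 2 higher and 1 lower for IL-10 in miR-155-/- BMDM, 2 higher and 0 lower for genotype in LPS + IL-10, 2 higher and 0 lower for IL-10 in WT BMDM, and 0 higher and 1 lower for the difference of the IL-10 effects. Spi1, which encodes PU.1, read 9.94 and 9.86 in miR-155-/-(LPS) BMDM, against 9.27 and 9.45 in WT(LPS) BMDM (0.54, adjusted p = 0.116). Cebpa differed by -0.97 in the same comparison (adjusted p = 0.112) and by 0.54 with IL-10 in miR-155-/- BMDM (adjusted p = 0.233). Irf1 differed by 0.73 between genotypes in LPS (adjusted p = 0.0719) and by -0.51 with IL-10 in miR-155-/- BMDM (adjusted p = 0.0977). Stat3, the mediator of the IL-10 signal, read 9.45 and 9.50 in miR-155-/-(LPS + IL-10) BMDM, against 9.18 and 9.10 in miR-155-/-(LPS) BMDM. WT(LPS + IL-10) BMDM gave 9.65 and 10.12, against 9.24 and 9.06 in WT(LPS) BMDM, a difference of 0.73 (adjusted p = 0.252). Stat3 was higher with IL-10 in all 4 donors. Cebpb gave the largest difference of the IL-10 effects, -0.58 (adjusted p = 0.422), and the largest genotype difference in LPS + IL-10 was 0.44, for Spi1 (adjusted p = 0.384).

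**Figure D4:**
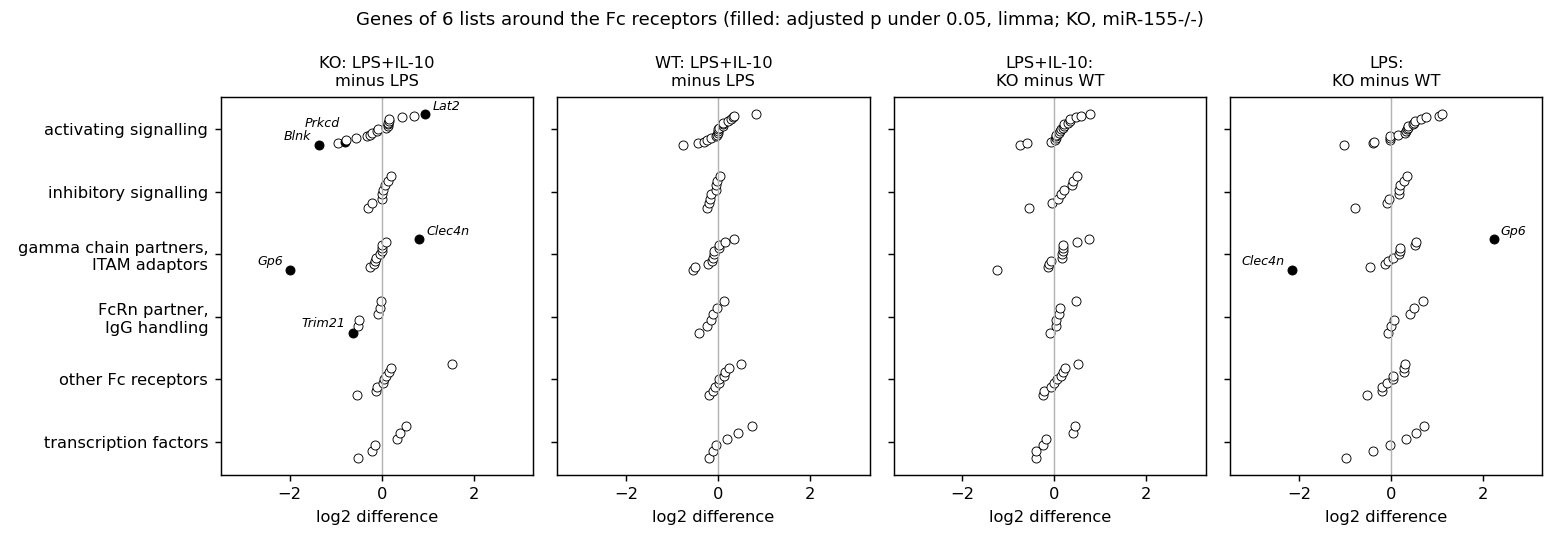
log2 differences (x axis) of the genes of 6 lists around the Fc receptors (y axis, 1 row a list, 1 point a gene) in 4 comparisons (KO, miR-155-/-), filled and named where the adjusted p was under 0.05 (limma). Filled points are Lat2, Prkcd, Blnk, Clec4n, Gp6 and Trim21 for IL-10 in miR-155-/- BMDM and Clec4n and Gp6 for genotype in LPS.

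The genes that ran most like each member over the 8 arrays were found by Pearson's r among 8484 other genes averaging 6 or more. These r are descriptions over 4 donors with 2 arrays each and carry no test. Fcgr3 ran with Timm10b (r = 0.991), a mitochondrial import chaperone, Tbxas1 (0.991), the thromboxane synthase of macrophages, and Zfyve21 (0.984). Fcgr2b ran with Ldha (0.962), a glycolytic enzyme, Arg2 (0.956), the mitochondrial arginase, and Pirb (0.951), another inhibitory receptor with ITIM motifs. Arg2 read 10.28 and 10.01 in miR-155-/-(LPS + IL-10) BMDM, against 8.97 and 8.44 in miR-155-/-(LPS) BMDM, and in WT(LPS + IL-10) BMDM it read 9.79 and 9.16, against 7.42 and 7.02 in WT(LPS) BMDM. Its order of groups was that of Fcgr2b over a wider span. Fcgr4 ran with Washc1 (0.968), Narf (0.953) and the inositol phosphatase Inpp5b (0.952), and Fcgrt with Ctdsp2 (0.986), Map4k4 (0.985) and Zcchc24 (0.983). Fcgr1 ran with Cox5a (0.965), a respiratory chain subunit, and with the inhibitory signalling genes Ptpn6 (0.961) and Csk (0.958), and Fcer1g with Abcf1 (0.984), B3galt4 (0.979) and Sh2b1 (0.975), though both members varied so little that small offsets between arrays weigh heavily in these r.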

How the data were processed

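BMDM RNA of 8 samples was amplified and labelled with NuGEN kits and hybridised by the authors to Affymetrix mouse genome arrays. The authors normalized the raw intensities by RMA with affy and deposited 1 log2 value per probe set and array. No source used here names the versions of affy or of the authors' limma. RMA brings all arrays to 1 distribution, so a shift common to most genes cannot be seen. Bright probe sets may be compressed near the top of the scale, which was not tested.

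Of 45101 probe sets, 64 controls and 29 Y-linked or Xist ones were left out, as in the study's methods. Symbols came from the platform annotation (34958 probe sets with 1 symbol, 932 with several, 9211 with none), and the IDs of the 6 members were checked against RefSeq (GRCm38.p6), which also gave the promoter and miRNA sequences. Array columns of no sample numbered 0. Tests used R 4.3.3 with limma 3.58.1 and statmod 1.5.0 (lmFit, eBayes) on all 8 arrays, with group means as coefficients, the donor as a random block (duplicateCorrelation, 0.24) and Benjamini-Hochberg adjustment over 45008 probe sets, called at an adjusted p under 0.05. Intervals are 95% intervals of that fit. The labels' genotype and replicate number together identify the donor, which pairs the arrays. Deviations of same-donor arrays from their group means correlated at 0.754 in WT and 0.23 in miR-155-/- arrays. The code of the fit was tried on simulated arrays with changes planted only for IL-10 in WT BMDM, which does not test the calls reported here. The number of arrays limits the precision.

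The members, the lists of related genes and the alternatives were chosen with earlier results of these data known. Named were all members, every listed gene past the threshold, the gene of each pathway list with the largest difference in each comparison, and the 3 genes most like each member. Syk, Vav3, Inpp5d, Tyrobp, B2m, Clec4e, Irf1, Fcer2a and Pigr, and the markers given with values, were named beyond that rule after their values were seen.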

Additional observations from a re-analysis of the deposited data

How the results depend on the processing

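The direction of the differences of Fcgr2b, Fcgr3, Fcgr4 and Fcgrt for IL-10 in either genotype and for genotype in LPS was the same under all alternatives run on their brightest probe sets, but the number of calls was not. For IL-10 in miR-155-/- BMDM, where 1 of the 6 genes passed, 2 passed with the donor as a fixed block, with only the arrays compared, with arrays centred on their medians, without both arrays of WT donor 1 and by the selection of the study's methods (unadjusted p under 0.05 and a log2 difference over 1 in size). Fcgrt joined Fcgr3 in each of these. There 3 passed after dropping probe sets averaging under 6 and 3 with an intensity trend and robust hyperparameters, and leaving out each array in turn gave 0 to 1. For IL-10 in WT BMDM, where 0 passed (limma, 4 at an unadjusted p under 0.05), 1 did after that filter and 2 with the trend. The study applied its own selection to IL-10 in WT BMDM and to genotype in LPS. For IL-10 in WT BMDM the brightest Fcgr2b set fell short of it at 0.80. The sets 1455332_x_at, 1435476_a_at and 1451941_a_at met it at 1.01, 1.31 and 1.47 (unadjusted p at most 0.000133, limma). For genotype in LPS, where 0 passed (limma, 4 at an unadjusted p under 0.05), 4 did after that filter, 4 with the trend and 1 by the selection of the methods. The filter removes dim probe sets from the adjustment and from the shared estimate of spread, and the cause of the gain under the trend was not tested. Without the replicate block the counts of members did not move (1 for IL-10 in miR-155-/- BMDM, 0 elsewhere), but the calls with IL-10 of Lat2, Blnk, Prkcd, Clec4n, Gp6 and Trim21 were lost (adjusted p = 0.0715 to 0.114), as was that of Mmp8 for genotype in LPS (0.0639), and with the donor as a fixed block that of Trim21 (0.0714). With only the arrays compared, the calls of Gp6, Mmp8 and Lum for genotype in LPS (0.131, 0.108 and 0.0661) and of Clec4n and Trim21 with IL-10 (0.0616 and 0.0841) were lost, and without WT donor 1 those of Gp6, Mmp8 and Lum for genotype in LPS (0.0688, 0.183 and 0.0812) and of Blnk and Trim21 with IL-10 (0.0651 and 0.0533). With the trend that of Mmp8 was lost (0.0782).

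Small differences changed sign. For IL-10 in WT BMDM, Fcgr1 gave -0.106 to 0.0119 and Fcer1g -0.0398 to 0.0646 over the arrays left out in turn, and 0.0250 and -0.0311 without WT donor 1. For IL-10 in miR-155-/- BMDM, Fcgr1 gave -0.0208 to 0.00582. Between genotypes in LPS + IL-10, Fcgr3 gave -0.0237 to 0.16 and Fcer1g -0.00223 to 0.0245, and Fcgr2b gave -0.239 on the dim probe set 1447622_at. That set also gave -0.0117 for genotype in LPS without WT donor 1 and -0.0592 for IL-10 in miR-155-/- BMDM without miR-155-/-(LPS + IL-10) replicate 1. The difference of the IL-10 effects of Fcgr1 was -0.0194 to 0.0989 over the arrays left out, -0.0325 without WT donor 1 and -0.389 on 1436625_at. A fixed donor block could not be fitted between genotypes, and for the difference of the IL-10 effects the arrays compared are all 8. With the arrays of 1 genotype alone the donor was a fixed block, since its random correlation could not be estimated, and without WT donor 1 the correlation of the full fit was kept.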
